A study of Mus musculus with 9 samples.

Results

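The 9 genes described here encode transcription factors of families with reported binding at CNS2, an intronic enhancer of Foxp3. They are Runx1, Runx2, Runx3 and their partner Cbfb, the Ets family genes Ets1, Elf1, Fli1 and Gabpa, and Creb1. They were taken by symbol from the deposited count table, and all 9 were found among its 34092 gene rows. The cells were regulatory T cells isolated and sorted from mice and taken in the resting state. The CNS2KO group carried the Foxp3deltaCNS2-gfp genotype, in which CNS2 is lacking, and the WT group the Foxp3gfp genotype, so that both groups carried the green fluorescent Foxp3 reporter. The labels give no age, sex or number of animals, and list 3 CNS2KO and 6 WT samples. Both columns numbered 407 were left out because 1 sample of each group has that number, which left CNS2KO 399 and 408 and WT 398, 402, 405, 1032 and 1037. The labels do not say whether these samples came from separate animals, so the p-values measure the spread between samples, which may be technical.

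Foxp3 is the lineage factor of regulatory T cells, and CNS2 is known as the element that keeps Foxp3 expressed as these cells divide. In cells with stable Foxp3 expression its CpG sites are unmethylated, and Runx-Cbfb complexes, Ets family proteins and Creb have been reported to bind there. Runx proteins bind DNA through the Runt domain, and Cbfb, which does not itself contact DNA, strengthens that binding. Ets proteins share the Ets domain, which reads a GGAA core, and Creb binds cAMP response elements and acts after phosphorylation by kinases such as protein kinase A.

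A feature that the choice of genes did not use joins the Runx genes. RefSeq promoter windows on GRCm38.p6, each covering 250 bases before to 50 bases after an annotated start, matched 7 of the 9 genes with 10 windows, and not Ets1 or Fli1. A window of each Runx gene held a closely spaced pair of the Runx motif TGTGGT, read as ACCACA on the gene's strand. The 30 bases around each pair are shown because the same letters lie in 3 separate genes, with the motif in capitals. The Runx1 stretch lies at chr16:92826025-92826054 on the minus strand, the Runx2 stretch at chr17:44814583-44814612 on the minus strand and the Runx3 stretch at chr4:135120503-135120532 on the plus strand.
Runx1: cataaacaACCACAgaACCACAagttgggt
Runx2: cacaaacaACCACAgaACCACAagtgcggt
Runx3: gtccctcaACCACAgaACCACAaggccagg
The pair started at base 29 after the start site in Runx1, at base 24 after it in Runx2 and 134 bases before it in Runx3. TGTGGT was searched on both strands and stood in 3 of the 10 windows, against 16.8% of all 32851 windows in the table. The paired form ACCACANAACCACA, chosen after the sequences were read, stood in 5 of the 32851 windows (0.0152%), also counted on both strands. These were the 3 Runx windows, that of Gm16225, which overlaps the Runx3 window on the other strand, and that of the olfactory receptor gene Olfr24. The Ets letters CCGGAAGT (3.89% of all windows) and the cAMP response element TGACGTCA (1.79%) were in 0 of the 10 windows, searched on both strands. A match describes letters only, and no binding was measured in these samples.

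The labelled cell type was checked first. The summed level of 6 regulatory T cell markers (Foxp3, Il2ra, Ctla4, Ikzf2, Cd4 and Cd3e) was 4646 CPM in CNS2KO 399 and 5059 CPM in CNS2KO 408, against 4496 to 5331 CPM in WT. CPM is the read count of a gene scaled to its library's total on gene rows and then between libraries by TMM. Reads on genes ranged from 16557424 to 21836578 per library. Foxp3 stood at 452 ± 15.9 CPM in CNS2KO (SD, n = 2) and 488 ± 78.9 CPM in WT (SD, n = 5), and its counts do not check the genotype, since CNS2 is noncoding. Platelet markers summed to 0 and 1.29 CPM in CNS2KO and 0.926 to 3.58 CPM in WT over 5 genes, with Gp1bb at 0 throughout. Of the endothelial markers, Kdr was at 0 in every library and Pecam1, which T cells also express, made up nearly all of the sum. Myeloid markers summed to 81.1 and 97.0 CPM in CNS2KO and 65.4 to 90.1 CPM in WT, and CD8 and NK markers to 47.9 and 46.1 CPM in CNS2KO and 43.6 to 58.8 CPM in WT, with Ncr1 at 0 throughout. CNS2KO 399 stood apart for erythroid markers, with a sum of 125 CPM over 4 genes, against 23.9 CPM in CNS2KO 408 and 5.49 to 19.9 CPM in WT. Its B cell marker sum over 5 genes was 80.3 CPM, against 37.9 CPM in CNS2KO 408 and 41.4 to 53.9 CPM in WT, and the part of either in the values below was not tested.

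Transcript levels of the 9 factors spanned a wide range. Levels between genes are given as CPM per kilobase, over the bases of all annotated GENCODE exons of the gene. Ets1, a factor of lymphoid cells needed for normal T cell survival, was at 302 ± 76.8 CPM per kilobase in CNS2KO (SD, n = 2) and 298 ± 32.7 in WT (SD, n = 5). By its mean over the 7 libraries it ranked 152 of the 12922 tested genes that had a length. Fli1, which lies next to Ets1 among the protein-coding genes of chromosome 9 in the GRCm38.p6 gene table, was at 73.9 ± 14.7 CPM per kilobase in CNS2KO and 76.4 ± 8.07 in WT. Elf1 was at 46.4 ± 2.24 and Cbfb at 17.1 ± 2.39 CPM per kilobase in CNS2KO, against 55.9 ± 5.56 and 19.5 ± 3.76 in WT. Ets1, Fli1, Elf1 and Cbfb kept this order in 7 of 7 libraries, with ranges that did not overlap.

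Creb1 and Gabpa came next, at 13.4 ± 2.39 and 12.5 ± 2.05 CPM per kilobase in CNS2KO and 12.4 ± 1.85 and 12.3 ± 0.678 in WT. Creb1 was the higher of the pair in 5 of 7 libraries, so by this length their levels did not differ beyond the spread. By the length of 1 coding transcript, the mean over the 7 libraries was 34.8 CPM per kilobase for Creb1 and 14.1 for Gabpa. The Runx genes were lowest. Runx1 was at 2.77 ± 0.214 CPM per kilobase in CNS2KO and 2.52 ± 0.652 in WT, Runx3 at 2.43 ± 0.973 and 1.96 ± 0.530, and Runx2 at 1.58 ± 1.26 and 0.716 ± 0.264. Runx1 was above Runx3 in 5 of 7 libraries and Runx3 above Runx2 in 7 of 7, though the ranges of both pairs overlapped. With the length of 1 coding transcript per gene instead, Elf1 moved above Fli1, Creb1 above Cbfb and Runx2 above Runx3, so only Ets1, Gabpa and Runx1 held their places among the 9.

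**Figure D1:**
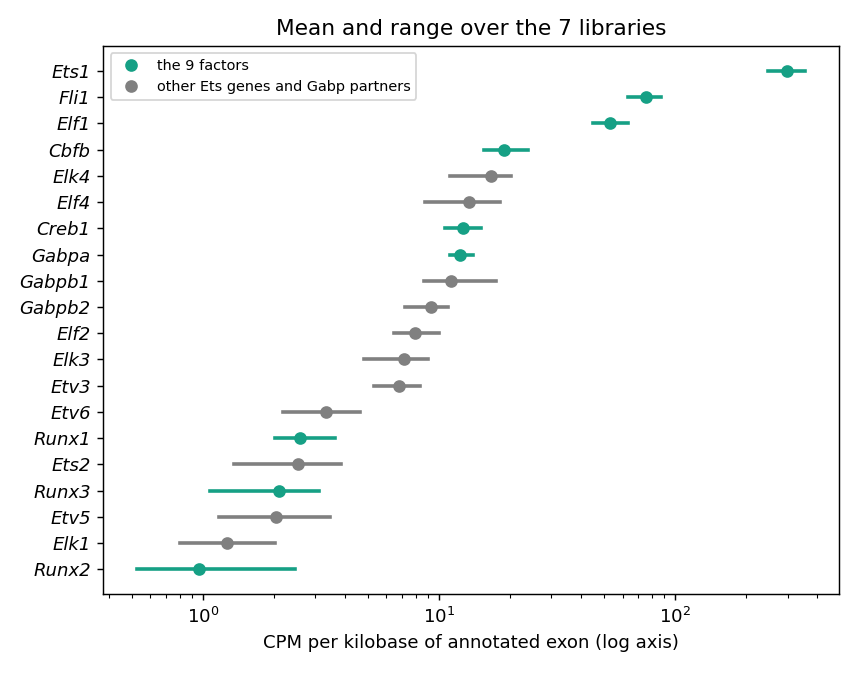
Mean (dot) and range (line) over the 7 libraries of CPM per kilobase of annotated exon, on a log axis, for the 9 factors (green) and for other Ets genes and Gabp partners above 0.3 CPM per kilobase in every library (grey). Ets1 lies highest, at a mean of 299 CPM per kilobase, and Runx2 lowest, at 0.963.

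No genotype difference in the 9 genes passed the test. edgeR's quasi-likelihood test called 0 of the 9 at an FDR of 0.05, where 0% of all 14424 tested genes were called, and all 9 had an adjusted p of 1. Runx2 was the only 1 of the 9 with an unadjusted p under 0.05, a mark that 2.5% of all tested genes reached. DESeq2 and limma-voom also called 0 of the 9, each with 0 at an unadjusted p under 0.05. The log2 fold changes, CNS2KO minus WT, were positive in 6 genes and negative in 3, with a median of 0.03, against -0.03 over all tested genes. Of all tested genes, 6835 had a positive and 7589 a negative fold change. In a mixed sample, fewer cells of a type and less RNA per cell cannot be told apart, which holds for each level given here.

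**Figure D2:**
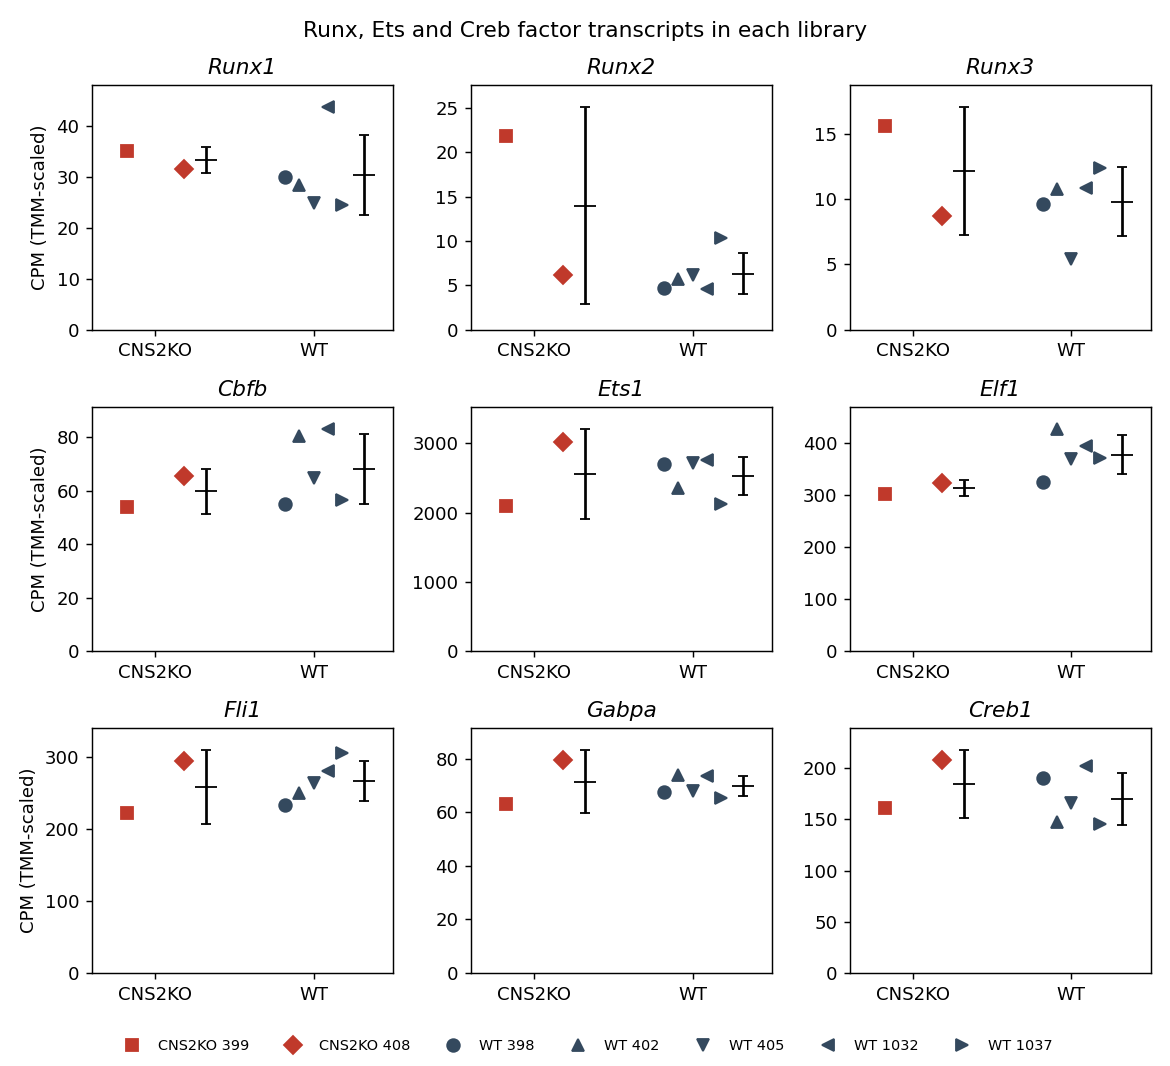
TMM-scaled CPM of each factor in each library, with CNS2KO (red) on the left and WT (blue) on the right of each panel and bars for mean ± SD (n = 2 and n = 5). The axes start at 0. In Elf1 both CNS2KO points lie under all WT points, and in Runx2 CNS2KO 399 lies at 21.8 CPM, above the other 6.

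Among the DNA-binding Runx proteins, Runx1 is known for its role in blood stem cells and in Foxp3 function, Runx3 for silencing Cd4 in CD8 T cells, and Runx2 for bone formation. Runx1 had 35.1 and 31.5 CPM in CNS2KO 399 and 408, against 29.9, 28.5, 24.9, 43.6 and 24.4 CPM in WT 398, 402, 405, 1032 and 1037. Both CNS2KO values lay inside the WT range, in which WT 1032 stood alone at the top. For Runx1 the fitted log2 fold change was 0.14 (95% interval -0.47 to 0.75, SE 0.28), with p = 0.571 by the two-sided exact permutation test over 21 assignments, whose smallest p is 0.0476. Without CNS2KO 399 the fold change was 0.063, and without WT 1032 it was 0.31.

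Runx3 had 15.6 and 8.70 CPM in CNS2KO 399 and 408, against 9.64, 10.7, 5.39, 10.8 and 12.4 CPM in the WT libraries in the order above. CNS2KO 399 was the highest of all and CNS2KO 408 inside the WT range, in which WT 405 was low. Its fitted log2 fold change was 0.31 (95% interval -0.62 to 1.24, SE 0.42, exact permutation p = 0.476). Without CNS2KO 399 it was -0.17, and without CNS2KO 408 it was 0.66.

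Runx2 was the most variable of the 9, with a ratio of 4.70 between the highest and lowest library. It had 21.8 and 6.12 CPM in CNS2KO 399 and 408, against 4.74, 5.77, 6.16, 4.64 and 10.3 CPM in WT. These values rest on 462 and 128 reads in CNS2KO, against 87, 95, 121, 86 and 177 reads in WT. CNS2KO 399 was higher than any other library, while CNS2KO 408 lay within the WT values. For Runx2 the fitted log2 fold change was 1.14 (95% interval 0.01 to 2.27, SE 0.52), with an unadjusted p of 0.0482 and an adjusted p of 1 by edgeR's quasi-likelihood test and an exact permutation p of 0.143. Without CNS2KO 399 it was -0.04. CNS2KO 399 was also the library with the high erythroid and B cell marker sums given above, and their part in the Runx2 value was not tested. Of the annotated exon bases of Runx2, 5.87% are shared with Runx2os1 on the other strand, and the sources used here do not give whether counting used the strand.

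The make-up of the Runx transcripts was computed from the same reads, so it holds the high Runx2 level of CNS2KO 399 by construction. It is not a second observation of that level. The high Runx3 level of CNS2KO 399 need not give a high share, because Runx2 raised the sum there too. As a share of summed Runx CPM per kilobase, Runx2 made up 29.0% in CNS2KO 399 and 13.7% in CNS2KO 408, against 10.8, 12.6, 18.1, 8.30 and 20.6% in WT 398, 402, 405, 1032 and 1037. CNS2KO 399 was the highest, WT 1037 the next, and the groups overlapped (exact permutation p = 0.238). Runx1 made up 34.4 and 51.9% in CNS2KO and 35.7 to 57.4% in WT, so its share in CNS2KO 399 lay just under every WT share. Runx3 made up 36.6 and 34.4% in CNS2KO, inside its 28.0 to 43.6% in WT. With the length of 1 coding transcript, Runx2 made up 54.9 and 31.0% in CNS2KO and 20.2 to 44.0% in WT, so the level of Runx2 relative to its paralogs depends on the length used.

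**Figure D3:**
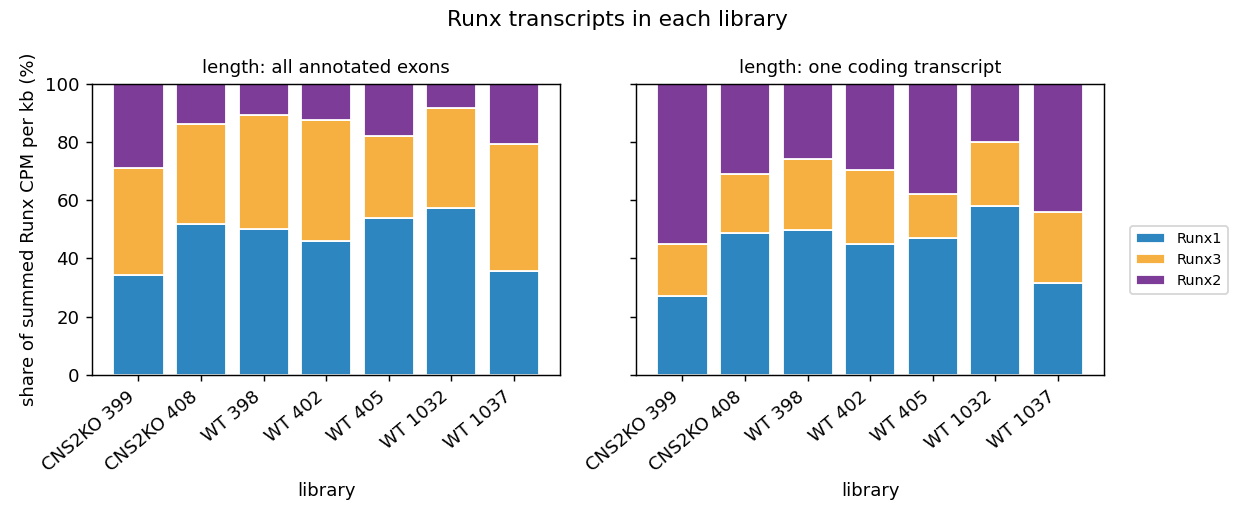
Share of each Runx gene in the summed Runx CPM per kilobase, in percent, for the 2 CNS2KO and then the 5 WT libraries, with the bases of all annotated exons (left) and 1 coding transcript (right) as the length. CNS2KO 399 has the largest Runx2 share in both panels, at 29.0% and 54.9%.

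Cbfb, the shared partner of the Runx proteins, had 53.8 and 65.55 CPM in CNS2KO 399 and 408, against 55.0, 80.2, 64.8, 83.0 and 56.4 CPM in WT. CNS2KO 399 lay just under the lowest WT library and CNS2KO 408 among the WT values. The difference was -0.19 on the log2 scale (95% interval -0.70 to 0.33, SE 0.24, exact permutation p = 0.476). Without CNS2KO 399 the difference was -0.046, without CNS2KO 408 it was -0.34 and without WT 1032 it was -0.10. The ratio of Cbfb to summed Runx, both in CPM per kilobase, was 1.82 and 3.73 in CNS2KO and 3.19, 4.46, 4.84, 3.77 and 2.86 in WT. Only CNS2KO 399 lay below the WT values, and the groups overlapped (exact permutation p = 0.286). The summed Runx level holds the high Runx2 level of CNS2KO 399, so this low ratio is not a separate observation. The ratio was computed with the bases of all annotated exons only, and not with the length of 1 coding transcript.

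Ets1 had 2098 and 3018 CPM in CNS2KO 399 and 408, against 2696, 2350.1, 2719.65, 2756 and 2129 CPM in WT. CNS2KO 399 was the lowest and CNS2KO 408 the highest of the 7 libraries, with all WT libraries between them. For Ets1 the fitted log2 fold change was 0.02 (95% interval -0.35 to 0.38, SE 0.17, exact permutation p = 0.952). It was 0.26 without CNS2KO 399 and -0.28 without CNS2KO 408. Of the summed Ets family CPM per kilobase, Ets1 made up 59.8 and 62.6% in CNS2KO, against 61.2, 56.9, 61.2, 60.1 and 54.3% in WT, and the groups overlapped.

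Elf1, an Ets factor of T and B cells, was the only 1 of the 9 whose groups did not overlap. It had 302 and 323 CPM in CNS2KO 399 and 408, against 324, 426, 369, 393 and 370.5 CPM in WT. Every WT library was above both CNS2KO libraries, but WT 398 was above CNS2KO 408 by less than 1 CPM. Among all tested genes, 3% had both CNS2KO values under all WT values and 6.77% had no overlap in either direction, which sets the background for 1 gene of 9. On the log2 scale Elf1 differed by -0.27 (95% interval -0.62 to 0.08, SE 0.16), with an unadjusted p of 0.12 and an adjusted p of 1 by edgeR's quasi-likelihood test and an exact permutation p of 0.0952. Of its annotated exon bases, 4.85% are shared with Wbp4 on the other strand, which stood at 25.5 to 53.5 CPM.

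Fli1, known for its role in megakaryocytes and in the restraint of T cell activation, had 221 and 294 CPM in CNS2KO 399 and 408, against 233, 249, 264, 281 and 306 CPM in WT. CNS2KO 399 was the lowest of the 7 and CNS2KO 408 inside the WT range. The difference was -0.05 on the log2 scale (95% interval -0.44 to 0.34, SE 0.18, exact permutation p = 0.714).

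Gabpa, the DNA-binding subunit of GA-binding protein, was the steadiest of the 9, with a WT coefficient of variation of 5.53%. It had 63.1 and 79.6 CPM in CNS2KO 399 and 408, against 67.7, 74.0, 68.0, 73.5 and 65.3 CPM in WT. As for Ets1, CNS2KO 399 was the lowest and CNS2KO 408 the highest library. Its fitted log2 fold change was 0.03 (95% interval -0.39 to 0.45, SE 0.19, exact permutation p = 0.762). Of its annotated exon bases, 6.98% are shared with Atp5j on the other strand, which stood at 123 to 226 CPM.

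Creb1 had 161 and 208 CPM in CNS2KO 399 and 408, against 191, 148, 166, 202 and 146 CPM in WT. CNS2KO 408 was the highest library and CNS2KO 399 lay inside the WT range, in which WT 402 and WT 1037 were low. For Creb1 the fitted log2 fold change was 0.12 (95% interval -0.31 to 0.54, SE 0.19, exact permutation p = 0.524). Without CNS2KO 399 it was 0.29, and without CNS2KO 408 it was -0.09.

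**Figure D4:**
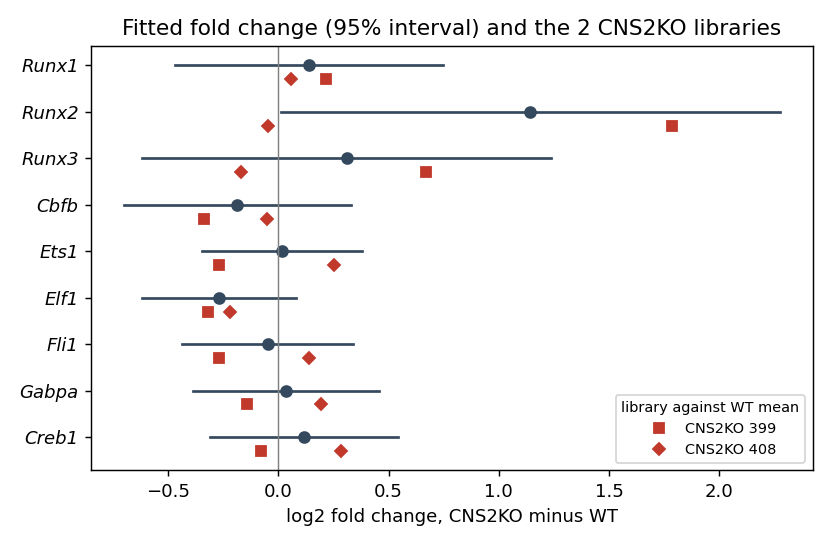
Fitted log2 fold change of each factor, CNS2KO minus WT, with its 95% interval (blue dot and line), and below it each CNS2KO library against the WT mean of CPM on the log2 scale (red square, CNS2KO 399, and red diamond, CNS2KO 408). The 2 CNS2KO libraries lie on opposite sides of 0 in Runx2, Runx3, Ets1, Fli1, Gabpa and Creb1, and on the same side in Runx1, Cbfb and Elf1. In Runx2 the side of CNS2KO 408 depends on the mean used. It had 6.12 CPM against a WT mean of 6.33 CPM, but lay 0.02 above the WT mean of log2 CPM.

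The 2 CNS2KO libraries thus differed from each other in most of the 9 genes. CNS2KO 399 lay below every WT library in 5 of them (Cbfb, Ets1, Elf1, Fli1 and Gabpa) and above every WT library in 2 (Runx2 and Runx3). Over all tested genes these shares were 19.8% and 20.1% for that library. CNS2KO 408 lay below every WT library in 1 gene and above in 3 (Ets1, Gabpa and Creb1), against 9.48% and 12.8% of all tested genes. In 2 of the 9, Ets1 and Gabpa, 1 CNS2KO library lay below and the other above every WT library, as in 4.46% of all tested genes. The 9 genes are not replicates, and these shares are descriptions of 2 libraries.

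**Figure D5:**
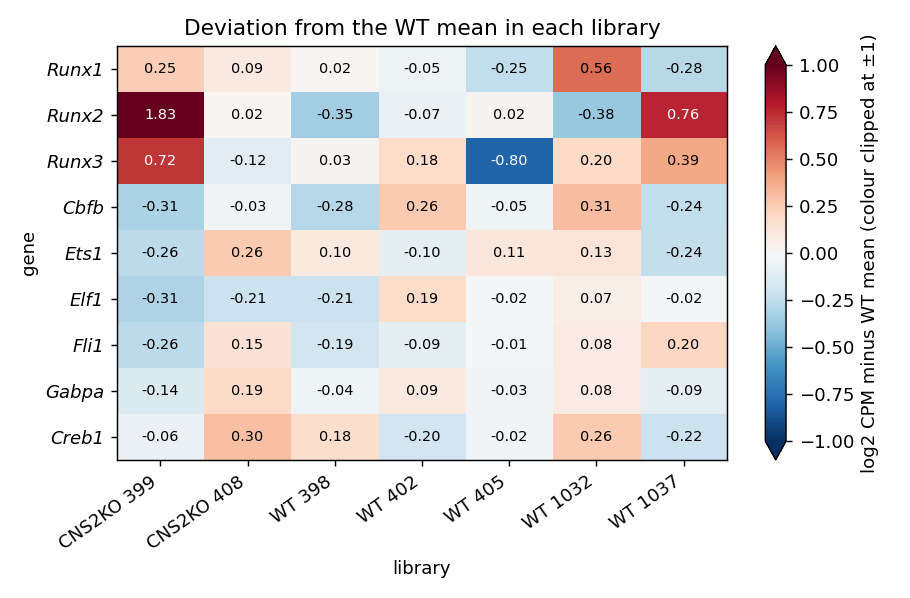
Log2 CPM of each factor in each library minus the WT mean, with the value printed in each cell and the colour clipped at 1 in either direction. CNS2KO 399 is high for Runx2 (1.83) and Runx3 (0.72) and low for Cbfb, Ets1, Elf1 and Fli1 (-0.31 to -0.26).

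Between WT libraries the 9 factors varied by a median coefficient of variation of 14.9%, against 18.7% over the 6683 tested genes at 20 CPM or more. Runx2 and Runx3, at WT means of 6.33 and 9.80 CPM, are under that limit, so the sets are not alike in level. The coefficient was highest in Runx2 (36.9%), Runx3 (27.1%) and Runx1 (25.9%), which had the fewest reads, and lowest in Gabpa and Elf1 (9.94%). Genes with the most similar pattern over the 7 libraries were named by the root mean square difference of log2 CPM after each gene's mean was taken away, among 6087 genes at 20 CPM or more, predicted genes left out. For Ets1 these were Lbr (0.05), G3bp2 (0.06) and Dock11 (0.06), where the spread of Ets1 itself was 0.19. For Creb1 they were Rasa2, Arih1 and Taok1 (each 0.06, with a spread of 0.20), and for Runx1 they were Ddx26b (0.07), Vps33a (0.09) and Kat2b (0.11, with a spread of 0.27). For Runx3 they were Sdccag8 (0.15), Rps16-ps2 (0.16) and Ppp1r15a (0.16), with a spread of 0.44.

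Relatives and partners of the 9 were described from lists named by family or function, which were chosen with earlier results of these data known. Of 22 other Ets family genes, 13 were tested, of which 0 passed edgeR's quasi-likelihood test. Of the 13, 1 (Elk3) had an unadjusted p under 0.05, a mark that 2.5% of all tested genes reached. Fold changes were positive in 6 and negative in 7, with a median of -0.27. Erg and the myeloid factor Spi1, listed under its older symbol, had at most 1 and 6 reads in any library. Elk4, a partner of serum response factor, averaged 89.4 ± 25.7 CPM in CNS2KO and 113 ± 16.8 CPM in WT (log2 fold change -0.34). Elf4 averaged 71.9 ± 25.7 and 87.1 ± 15.4 CPM (-0.28), and Elf2 77.8 ± 17.1 and 75.3 ± 13.4 CPM (0.05), each in CNS2KO and in WT.

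Elk3, a repressor of the Elk group, had 21.9 and 26.5 CPM in CNS2KO 399 and 408, against 37.9, 35.5, 29.9, 34.6 and 40.8 CPM in WT. Both CNS2KO values were under all WT values, as in 3% of all tested genes. Its log2 fold change was -0.56 (SE 0.24, exact permutation p = 0.0476, the smallest possible), with an adjusted p of 1 by edgeR's quasi-likelihood test. Elk3 was named because its groups did not overlap, which by itself puts the permutation p at or near its smallest value. Spib, a factor of B cells and plasmacytoid dendritic cells, had 66 and 26 reads in CNS2KO 399 and 408, against 9, 4, 16, 0 and 0 reads in WT. Both CNS2KO values were over all WT values, as in 3.76% of all tested genes. The B cell marker sum was the highest of the 7 libraries in CNS2KO 399 and the lowest in CNS2KO 408 (37.9 CPM), and its part in the Spib values was not tested.

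Gabpb1 and Gabpb2 encode the partners of Gabpa that carry its activation function. Of these 2 genes, 0 passed edgeR's quasi-likelihood test. Gabpb1 had an unadjusted p under 0.05, a mark that 2.5% of all tested genes reached. Gabpb1 had 136 and 86.0 CPM in CNS2KO 399 and 408, against 80.3, 83.2, 79.6, 79.8 and 66.8 CPM in WT. CNS2KO 399 was far above the rest, and CNS2KO 408 just above the highest WT library, an order that 3.76% of all tested genes share. The log2 fold change was 0.51 (SE 0.21, exact permutation p = 0.0476, the smallest possible), with an adjusted p of 1 by edgeR's quasi-likelihood test. Here too the permutation p follows from the groups not overlapping and adds nothing to that order. Gabpb2 averaged 137 ± 14.1 CPM in CNS2KO and 145 ± 27.0 CPM in WT (log2 fold change -0.08).

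Of 11 Creb relatives, coactivators and subunits of protein kinase A, all were tested and 0 passed edgeR's quasi-likelihood test, with 0 at an unadjusted p under 0.05. Fold changes were positive in 2 and negative in 9, with a median of -0.08, where 6835 of all tested genes were positive and 7589 negative. In both positive genes of the list the CNS2KO values were over all WT values, as in 3.76% of all tested genes. No overlap in either direction was found in 6.77%. Prkar1a, a regulatory subunit of protein kinase A, had 941 and 961 CPM in CNS2KO 399 and 408, against 818, 806, 848, 848 and 767 CPM in WT (log2 fold change 0.22, SE 0.13, exact permutation p = 0.0476). Crem, a close relative of Creb1 that also gives rise to a repressor, had 60.2 and 54.0 CPM, against 41.1, 42.7, 42.3, 53.4 and 49.0 CPM (log2 fold change 0.32, SE 0.21, exact permutation p = 0.0476). Both had an adjusted p of 1 by edgeR's quasi-likelihood test. Their permutation p-values follow from the groups not overlapping, the reason for which Crem was named, and add nothing to that order. The coactivator Crebbp averaged 116 ± 19.6 CPM in CNS2KO and 120.4 ± 13.0 CPM in WT, and the catalytic subunit Prkacb 274 ± 91.8 and 292 ± 42.7 CPM.

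Of 8 corepressors and partners of Runx proteins, 6 were tested, 0 passed edgeR's quasi-likelihood test and 0 had an unadjusted p under 0.05, with 3 fold changes of each sign and a median of 0.21. The corepressor Tle3 averaged 41.1 ± 3.41 CPM in CNS2KO and 44.1 ± 6.43 CPM in WT (log2 fold change -0.10). Tle4 averaged 25.3 ± 3.24 and 26.9 ± 5.12 CPM (-0.09), and Cbfa2t2 72.7 ± 4.85 and 75.4 ± 8.59 CPM (-0.05), each in CNS2KO and in WT. None of these lists was shown to differ from the rest of the genes, since no list was tested as a whole.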

How the data were processed

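RNA of sorted regulatory T cells was amplified with SMARTer and made into Proton libraries after Trizol extraction, per the labels' protocols. Tools named in the submitters' processing notes are BWA, STAR and edgeR, without roles or versions, on build mm9. The read counter and its strand setting are not given in the sources used here. Per the file headers, the authors deposited raw counts per gene symbol, log2 values and a table of signed values with no named groups, which was not used. In each used table, 2 columns numbered 407 were not used. Reads on genes made up 22.0 to 23.7% of each column; 5 summary rows (no feature, 47.7 to 54.3%, and others) stayed out of library sizes and tests.

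The tests were run in edgeR 4.0.16 under R 4.3.3 (filterByExpr, TMM, two-sided quasi-likelihood test, Benjamini-Hochberg adjustment over 14424 genes, FDR 0.05) and log2 CPM with a prior count of 2. Each standard error was obtained by dividing the fold change by the square root of F. Between any 2 libraries the chi-square per degree of freedom was at least 30.1, so none agreed within sampling noise. A floor of 3 counts is 0.142 to 0.182 CPM and covers counting error only. Exon lengths came from GENCODE M21 on GRCm38 and matched 89.6% of tested genes; the build differs from mm9, so no coordinates of these genes are given other than those of the RefSeq windows. Spi1 was matched by its older symbol. Median fitted fold changes were checked against those put into simulated counts. The spread of these counts came from the fit itself, so how the tests call real counts was not checked. Alternatives were other scalings and filters, DESeq2 1.42.0, limma-voom and limma 3.58.1 on the authors' deposited log2 values, fewer WT libraries and each library left out. The 9 genes and the lists were chosen with earlier results of these data known. All 9 were named. Of each list the 3 highest genes by mean CPM were named, with up to 3 whose groups did not overlap, since 0 passed the FDR.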

Additional observations from a re-analysis of the deposited data

Results flagged for a closer look

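The 5 WT values of 31 genes were checked for a library that stood alone, and 3 genes had one, where chance gives about 1 in 20. Runx1 in WT 1032 was far above the other WT libraries, at 43.6 CPM against 29.9 CPM in the next. Runx2 in WT 1037 was likewise high, at 10.3 CPM against 6.16 CPM in the next. Gabpb1 in WT 1037 was far below the others, at 66.8 CPM against 79.6 CPM in the next. All 3 were thus in WT 1032 or WT 1037, whose column names begin with R, where those of the other compared libraries begin with YI. The sources used here do not give what these letters stand for, and their part in the values was not tested. Without WT 1032 the log2 fold change of Runx1 was 0.31, against 0.14 with all libraries.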

How the results depend on the processing

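The 9 genes stayed uncalled under every alternative run, including the fit with at least 10 CPM in 3 libraries, in which Runx2 was not tested. Among all genes 0 were called, other than 8 when low counts were not filtered, none of them among the 9. The sign of Ets1 turned with limma-voom (-0.0022) and with WT numbers of 3 digits only (-0.016), where Fli1 turned to 0.051. That last setting, which leaves out WT 1032 and WT 1037, gave 0.26 in Runx1, 1.33 in Runx2 and 0.50 in Runx3. With all libraries these were 0.14, 1.14 and 0.31. With 1 library left out, log2 fold changes ranged from -0.28 to 0.26 in Ets1, -0.27 to 0.15 in Fli1, -0.15 to 0.20 in Gabpa, -0.088 to 0.29 in Creb1, -0.043 to 1.78 in Runx2 and -0.17 to 0.66 in Runx3, and these signs turned. The median of the 9 ranged from -0.15 (without CNS2KO 408) to 0.063. The signs of Runx1, Cbfb and Elf1 held under all alternatives run, but their sizes changed with 1 library left out. They ranged from 0.063 to 0.31 in Runx1, -0.34 to -0.046 in Cbfb and -0.32 to -0.21 in Elf1. In each of these genes the smallest size came without CNS2KO 399. In fits with 1 CNS2KO library, that library was assumed to vary like WT. Plain CPM left the same number of genes, 1, with groups that did not overlap. No paired analysis was possible because the groups share only the number 407, whose columns were not used. With 2 CNS2KO libraries, Runx2 fold changes of up to 2.27 on the log2 scale lie inside its interval.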

Other observations

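Genes that these factors are known to regulate were also read. Of 13 genes regulated by Runx proteins in T cells, 12 were tested, 0 passed edgeR's quasi-likelihood test and 0 had an unadjusted p under 0.05. Fold changes were positive in 3 and negative in 9, with a median of -0.18, where 6835 of all tested genes were positive and 7589 negative. Cd4, which Runx3 silences in CD8 T cells, averaged 569 ± 48.3 CPM in CNS2KO and 650 ± 87.3 CPM in WT (log2 fold change -0.19). The IL-7 receptor gene Il7r, which is in the Runx list and the Ets list, averaged 395 ± 45.7 CPM in CNS2KO and 465 ± 119 CPM in WT (-0.23).

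Of 8 genes regulated by Ets1 or GA-binding protein, 8 were tested, 0 passed the same test and 0 had an unadjusted p under 0.05, with 4 fold changes of each sign and a median of -0.01. The survival gene Bcl2 averaged 359 ± 18.6 CPM in CNS2KO and 423 ± 64.9 CPM in WT (-0.24), and the respiratory chain gene Cox4i1 399 ± 137 and 391 ± 43.8 CPM (0.03). Of 12 genes regulated by Creb, 12 were tested, 0 passed and 0 had an unadjusted p under 0.05, with 6 of each sign and a median of -0.06. The cAMP phosphodiesterase gene Pde4b averaged 206 ± 15.2 CPM in CNS2KO and 194 ± 33.5 CPM in WT (0.09). The immediate early gene Fos averaged 98.03 ± 9.21 and 140.2 ± 88.3 CPM (-0.52), and Nr4a1 90.4 ± 17.1 and 84.7 ± 22.2 CPM (0.09), each in CNS2KO and in WT.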
